A study of Mus musculus with 17 samples.

Results

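The microRNAs miR-10a, miR-10b, miR-196a and miR-196b are encoded inside the Hox gene clusters, and their levels were measured in exosomes, small membrane vesicles released by cells, isolated from mouse feces. Members were all rows of the count table for these 4 names, whichever arm of the hairpin they came from. Of the 1487 small RNAs (smRNAs) listed, 7 met this rule: mmu-miR-10a-5p, mmu-miR-10b-5p, mmu-miR-10b-3p, mmu-miR-196a-5p, mmu-miR-196a-2-3p, mmu-miR-196b-5p and mmu-miR-196b-3p, written without the species prefix mmu from here on. The 3p arm of miR-10a has no row and was not analysed here. All 17 libraries came from IL-10 KO mice on a C57BL/6J background, which lack the anti-inflammatory cytokine interleukin 10 and are used as a model of spontaneous colitis. The mice arrived at 4 weeks of age and were caged singly, and their age at each sampling is not given in the sources used here. The start-point group held 10 libraries from 10 mice (7 male, 3 female). The end-point group held 7 libraries from 6 of the same mice (5 male libraries, 2 female), because end-point libraries 1 and 2 carry the label of the same male. Whether both labels are right cannot be told from the sources used here, and the counts of mice, the mouse pairs and the mouse block take them as given. Both groups share the knockout. Wild-type mice, which the protocols mention, were not analysed here.

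A microRNA hairpin is cut into a duplex whose 5p and 3p strands can each be loaded into an Argonaute protein, where bases 2 to 8 of the strand, the seed, pair with target mRNAs. The miR-10 and miR-196 genes lie between or within Hox genes, are expressed with their neighbours along the head-to-tail axis, and have Hox mRNAs among their targets. miR-196, for example, directs cleavage of the Hoxb8 mRNA. In the adult both families are found in posterior tissues, the large intestine among them.

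The mature sequences below, from RefSeq (GRCm38.p6), show which members share a seed and how little the a and b forms differ. Each is written 5′ to 3′ with the seed in capitals.
miR-10a-5p: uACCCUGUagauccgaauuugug
miR-10b-5p: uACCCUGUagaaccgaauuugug
miR-10b-3p: cAGAUUCGauucuaggggaaua
miR-196a-5p: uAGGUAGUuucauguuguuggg
miR-196b-5p: uAGGUAGUuuccuguuguuggg
miR-196a-2-3p: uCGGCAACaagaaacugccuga
miR-196b-3p: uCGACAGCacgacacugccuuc
The 7 arms carry 5 seeds. The 5p arms of miR-10a and miR-10b share the seed ACCCUGU and differ at 1 of 23 bases, U12A, counted from 1 at the 5′ end with the miR-10a base first. The 5p arms of miR-196a and miR-196b share the seed AGGUAGU and differ at 1 of 22 bases, A12C, with the miR-196a base first. How reads were assigned between such near-identical forms is not given in the sources used here, so the split between a and b forms is uncertain. Of the 1487 smRNAs, 1254 matched a RefSeq mature sequence, and 0 of these outside the members carried 1 of their seeds.

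In GRCm38.p6, Mir10a lies at chr11:96317165-96317274 on the plus strand, 992 bp from Hoxb4 and overlapping no other annotated gene. Mir196a-1 is on the same chromosome and strand at chr11:96265164-96265265, between Hoxb13 and Hoxb9, and 51899 bp from Mir10a. Mir10b lies at chr2:74726070-74726137 on the plus strand, in introns of Hoxd3 and Hoxd4. Mir196a-2 lies at chr15:102973350-102973434 on the plus strand, in an annotated intron of Hoxc5. Mir196b lies at chr6:52230081-52230165 on the minus strand and overlaps an annotated exon of Hoxa9. The mature miR-196a-5p is the same from both Mir196a genes, so its counts pool these loci, whereas miR-196a-2-3p comes from Mir196a-2 alone. The Mir10b hairpin is shown because both of its arms (capitals) were counted.
Mir10b hairpin: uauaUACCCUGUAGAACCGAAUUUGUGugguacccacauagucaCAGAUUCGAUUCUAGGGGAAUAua

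Depth limited every value. Library totals ranged from 87527 to 178075 counts at the start-point and from 32320 to 161862 at the end-point, where libraries 1, 3 and 7 held under 75000. All 7 members together took 2007 of 2078981 counts, 0.0965%, and between 0.0515% and 0.168% of a single library. A floor of 3 counts corresponded to 16.8 to 34.3 counts per 1000000 counts of the library (CPM) at the start-point and to 18.5 to 92.8 CPM at the end-point, and it covers counting error only. Of 9 intestinal epithelial marker miRNAs 8 were listed, none at 0 throughout, and their summed level was 3226 to 19689 CPM at the start-point and 2970 to 38181 CPM at the end-point. The 4 listed of 6 smooth muscle and stromal markers summed to 413 to 2276 CPM at the start-point and to 340 to 12371 CPM at the end-point. They summed to 2575 to 12371 CPM in the 3 end-point libraries under 75000 counts, above every start-point library. Only the sum is meant, since miR-143-3p alone reached 11776 CPM at the end-point. There miR-145a-5p and miR-133a-3p reached 371 and 495 CPM, below their start-point maxima of 533 and 1922 CPM. The remaining listed marker, miR-214-3p, went the other way, reaching 495 CPM against a start-point maximum of 382 CPM. In the time point fit below, 1 of these 4 markers was called higher (miR-143-3p) and 1 lower (miR-133a-3p). Of the 8 epithelial markers 3 were called higher and 3 lower, beside 33.7% of all smRNAs called. For leukocyte markers, 4 of 5 were listed, with sums of 387 to 3361 CPM and 237 to 3114 CPM. For red-cell markers 2 of 3 were listed, with sums of 149 to 1006 CPM and 12.4 to 530 CPM. None of these listed markers was at 0 in every library, and the part of such sources in the members' levels was not tested. In fecal exosomes, fewer vesicles from a cell type and less of the miRNA in each vesicle cannot be told apart.

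The 5p arms of miR-196a, miR-196b and miR-10a were the most abundant members. Over all 17 libraries the 5p arm of miR-196a averaged 278 ± 204 CPM (SD of 17 libraries), rank 635 of 1487, that of miR-196b 251 ± 222 CPM and that of miR-10a 218 ± 135 CPM. These 3 lay around the median smRNA, whose mean was 233 CPM, and differed from each other by less than 1 SD. The other members followed at 82.6 ± 95.8 CPM for miR-196b-3p, 78.3 ± 51.3 CPM for miR-10b-3p, 77.0 ± 71.1 CPM for miR-10b-5p and 34.4 ± 32.0 CPM for miR-196a-2-3p, again with neighbours within 1 SD. All arms are 22 or 23 bases long, so length hardly enters this order.

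**Figure D1:**
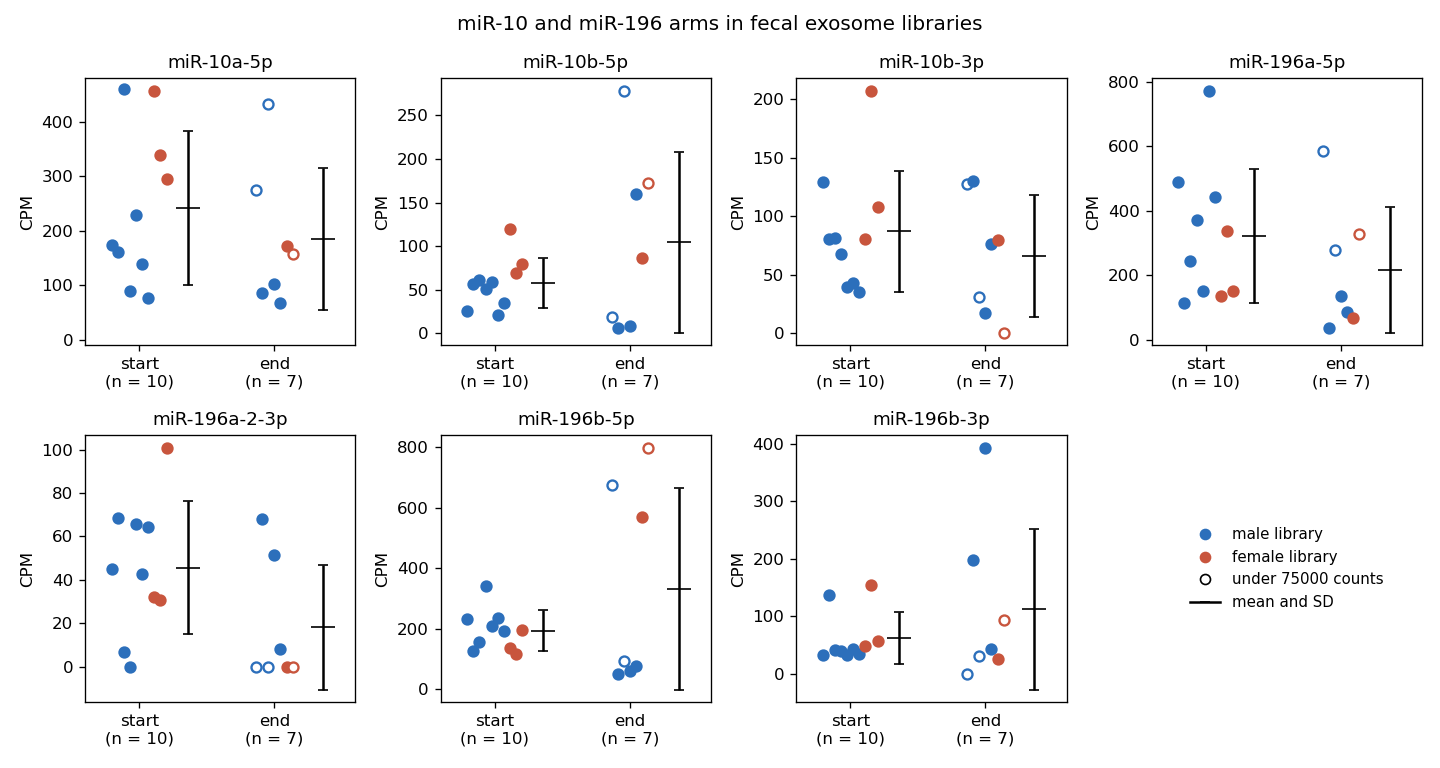
Level of each arm (CPM, linear axis) in each start-point (n = 10) and end-point (n = 7) library. Filled points are libraries of at least 75000 counts, open points those below, colour gives sex, and bars are mean and SD. For miR-196b-5p the end-point libraries lie either at 92.8 CPM or lower or at 569 CPM or higher, while the start-point libraries lie between 115 and 343 CPM.

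The contrast of the 2 time points compares later with earlier fecal exosomal smRNAs of knockout mice. The course of the disease and the age of the mice cannot be told apart in it. All 3 libraries under 75000 counts are end-point ones. None of the 4 members that passed the low-count filter was called (edgeR quasi-likelihood test, TMM scaling, Benjamini-Hochberg adjusted p under 0.05), and 0 had an unadjusted p under 0.05, as 571 of all 1270 tested smRNAs (45.0%) did. Over all smRNAs 33.7% of 1270 were called, 17.4% higher and 16.3% lower. With no filter on low counts 1 of the 7 members was called, miR-196b-3p, against 33.2% of 1487, 16.9% higher. The median log2 fold change of the 7 was 0.41, with 4 above 0, beside -0.22 over all 1487. CPM of the groups overlapped for every member, as they did for all but 78 smRNAs (5.25%). The scaling matters for direction, since with library totals alone the log2 fold change of the median tested smRNA moved from -0.18 to -0.65 and the calls from 221 higher and 207 lower to 153 higher and 327 lower. By the labels, replicates are separate mice except for end-point libraries 1 and 2, and 6 mice contributed to both groups.

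Over all libraries, without the mouse pairing, the 5p arm of miR-10a showed almost no difference between the time points once scaled. In the start-point libraries miR-10a-5p ranged from 75.8 CPM through a median of 202 to 459 CPM, and in the end-point libraries from 67.5 through 157 to 433 CPM. The counts behind these were 13 to 68 and 8 to 26. The ranges nearly coincided, and only 2 of 7 end-point libraries lay above the start-point median. The mean was 242 ± 141 CPM (SD of 10 libraries) and 185 ± 130 CPM (SD of 7 libraries). With TMM factors the log2 fold change was -0.00 ± 0.35 (SE, 95% interval -0.70 to 0.69, adjusted p = 0.992, edgeR), and -0.40 with library totals alone, where it lay above the shifted median of all smRNAs. Within mice, miR-10a-5p in CPM was lower at the end-point in 5 of 6, with the 2 end-point libraries of mouse 1 averaged. That count leaves out TMM factors, and the -0.00 comes from a fit that leaves out the mouse pairs. Of 27 alternatives, which include the mouse block, 0 called miR-10a-5p, with log2 fold changes of -0.40 to 0.17. At the start-point the 3 female libraries, at 456, 338 and 296 CPM without TMM factors, exceeded 6 of the 7 male ones. The remaining male library was at 459 CPM. That order depends on the scaling, since TMM factors were 1.48, 1.67 and 1.92 in these females and 0.763 to 1.27 in start-point males. The sex contrast of miR-10a-5p was called in 0 of 21 alternatives, none with a term for mouse, with log2 fold changes (female over male) of -0.02 to 0.53.

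The 5p arm of miR-10b, which shares its seed with miR-10a-5p, was spread far more widely at the end-point. Start-point libraries held 21.5 to 120 CPM of miR-10b-5p with a median of 58.0 CPM. At the end-point, libraries 1, 2 and 4 held 18.3, 6.18 and 8.56 CPM, from 1 count each, and libraries 3, 5 and 7 held 278, 160 and 172 CPM. Thus, in CPM without TMM factors, 3 end-point libraries lay above the whole start-point range and library 6 inside it at 86.1 CPM. The 3 libraries with 1 count could not be placed, since the 3-count floor was 54.8, 18.5 and 25.7 CPM in them and the lowest start-point value itself came from 2 counts. The means were 57.8 ± 28.7 CPM (SD of 10 libraries) and 104 ± 104 CPM (SD of 7 libraries), and their difference was smaller than the end-point spread. This arm did not pass the filter, and without one its log2 fold change was 1.07 ± 0.52 (SE, adjusted p = 0.106, edgeR). Also with no filter, it passed the threshold when end-point library 1 was left out (1.27, adjusted p = 0.0391) or was summed with library 2 of the same mouse (1.26, adjusted p = 0.0419), but not without library 2 (1.26, adjusted p = 0.0540) or library 4 (1.26, adjusted p = 0.0541). With the filter, which it passed once one of these libraries was left out, the adjusted p was 0.0325 without library 1, 0.0478 without library 2 and 0.0362 without library 4.

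The opposite strand of the same hairpin, miR-10b-3p, ranged from 35.0 to 207 CPM (median 80.0) at the start-point and from 0 to 130 CPM (median 76.0) at the end-point. End-point library 7 had 0 counts, which allows up to 47.0 CPM at its depth, and libraries 3 and 4 had 1 and 2 counts. In CPM without TMM factors, no end-point library exceeded the start-point range. The log2 fold change was 0.45 ± 0.58 (SE, adjusted p = 0.571, edgeR) and -0.32 with library totals alone, so its sign changed with the scaling.

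In the miR-196 family the 5p arm of the a form had a lower mean at the end-point but did not pass the test. Start-point libraries held miR-196a-5p at 114 to 773 CPM with a median of 291 CPM. End-point libraries held 585, 37.1, 278, 137, 84.4, 66.2 and 329 CPM in the order of their numbers. In CPM without TMM factors, libraries 2, 5 and 6 fell below the whole start-point range and the others inside it. Their TMM factors were 0.419, 0.727 and 0.745, while those of start-point libraries reached 1.92, so these positions depend on the scaling. Within mice its CPM was lower at the end-point in 5 of 6, a count that also leaves out TMM factors. It takes the mean of the 2 end-point libraries of mouse 1, at 585 and 37.1 CPM against 490 CPM at the start-point. The mean was 321 ± 209 CPM (SD of 10 libraries) at the start-point and 217 ± 195.99 CPM (SD of 7 libraries) at the end-point, and the log2 fold change was -0.60 ± 0.50 (SE, 95% interval -1.58 to 0.39, adjusted p = 0.370, edgeR). Of the 4 tested members it alone kept its sign under all 27 alternatives, between -1.09 and -0.16, and it was called in 0 of them.

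The 3p arm of the Mir196a-2 hairpin was the rarest member. It had 0 to 14 counts at the start-point, 0 to 101 CPM, with 1 library at 0. At the end-point 4 of 7 libraries had 0 counts, which allows up to 54.8, 92.8, 19.9 and 47.0 CPM in libraries 1, 3, 6 and 7. Libraries 2, 4 and 5 held 68.0, 51.3 and 8.44 CPM. The direction of miR-196a-2-3p within mice could not be read in mice 1, 3 and 11, whose start-point values of 45.2, 6.75 and 30.7 CPM lie under what those zeros allow. The unfiltered log2 fold change was -0.03 ± 0.90 (SE, adjusted p = 0.982, edgeR), with an interval of -1.79 to 1.73.

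At the end-point the CPM of miR-196b-5p, the other strand with the AGGUAGU seed, were above the start-point range in 3 libraries and below it in 4. Start-point values ran from 115 to 343 CPM with a median of 194 CPM. End-point libraries 1, 6 and 7 held 676, 569 and 799 CPM (37, 86 and 51 counts), and libraries 2, 3, 4 and 5 held 49.4, 92.8, 59.9 and 76.0 CPM (8, 3, 7 and 9 counts). No end-point value in CPM fell inside the start-point range. Library 3, however, at exactly the 3-count floor of its depth, could not be resolved from it. In CPM, libraries 1 and 2 lie on opposite sides of this range although they carry the label of the same mouse. The low side depends on the scaling, since CPM leave out the TMM factors used in the fits. These were 0.419, 0.555 and 0.727 in libraries 2, 4 and 5, and 1.67 in start-point library 9, the lowest at 115 CPM. Scaling by them raises the former values and lowers the latter. The mean was 194 ± 67.7 CPM (SD of 10 libraries) and 332 ± 334 CPM (SD of 7 libraries), and the log2 fold change 0.90 ± 0.49 (SE, 95% interval -0.06 to 1.87, adjusted p = 0.159, edgeR). Among males alone it was -0.29 (adjusted p = 0.729).

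Both female end-point libraries were on the high side of this split. In the females with both time points, miR-196b-5p went from 136 to 569 CPM and from 115 to 799 CPM. In 3 of the 4 males it went down, from 155 to 92.8, from 210 to 59.9 and from 192 to 76.0 CPM, and in the fourth from 232 CPM to 676 and 49.4 CPM in the 2 libraries of that mouse. The difference between the sexes in the change over time was tested after these data were seen. No fit of it holds a term for mouse, so the changes within mice given above were not tested as pairs. Where both are kept, the 2 end-point libraries of the fourth male count as separate. It was 3.39 ± 0.91 (SE, log2, female minus male, p = 0.00114, adjusted p = 0.548, edgeR interaction term), the second smallest p of 1462 smRNAs, and no smRNA was called (0.0%), while 93 had an unadjusted p under 0.05 (6.36%). With DESeq2 it was 3.47 (adjusted p = 0.0224, 0.202% of smRNAs called). Without the 3 libraries under 75000 counts it was 4.31 (adjusted p = 0.0179, 0.134% called), but that fit holds 1 female end-point library, taken to vary like the other groups. Without end-point library 1 it was 4.22 (adjusted p = 0.0152, 0.0684% called). Both fits leave out library 1, the only high male value at the end-point, so neither is a separate check on the difference. With library totals alone it was 2.38 (adjusted p = 0.557). Only 2 female end-point libraries bear on it, 1 of them (library 7) under 75000 counts. The sum of the smooth muscle and stromal markers, 1 of which was called higher and 1 lower, was above the start-point range in libraries 1 and 7. It was also above that range in library 3, where miR-196b-5p was low. The part of these markers in the difference was not tested.

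The 3p arm of miR-196b was the only member called in the fit with no filter, and 2 libraries stood above the rest. Start-point libraries held miR-196b-3p at 32.3 to 154 CPM (4 to 20 counts). End-point libraries 2 and 4 held 198 and 394 CPM (32 and 46 counts), while the other 5 held 0 to 94.0 CPM (0 to 6 counts), none above the start-point range. The means were 61.9 ± 44.8 CPM (SD of 10 libraries) and 112 ± 140 CPM (SD of 7 libraries). With no filter the log2 fold change was 1.98 ± 0.66 (SE, 95% interval 0.69 to 3.26, adjusted p = 0.0217, edgeR). Without library 2 it was 1.55 (adjusted p = 0.0790) and without library 4 it was 1.21 (adjusted p = 0.160). The same 2 libraries had the lowest TMM factors, 0.419 and 0.555 in a range up to 1.92, and with library totals alone the value was 0.89 (adjusted p = 0.265). With mouse as a replicate block it was 1.21 (adjusted p = 0.472), in a fit with no filter that called 5.25% of 1487 smRNAs. The filtered fit with that block called 0 members, beside 8.02% of 1185 smRNAs.

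**Figure D2:**
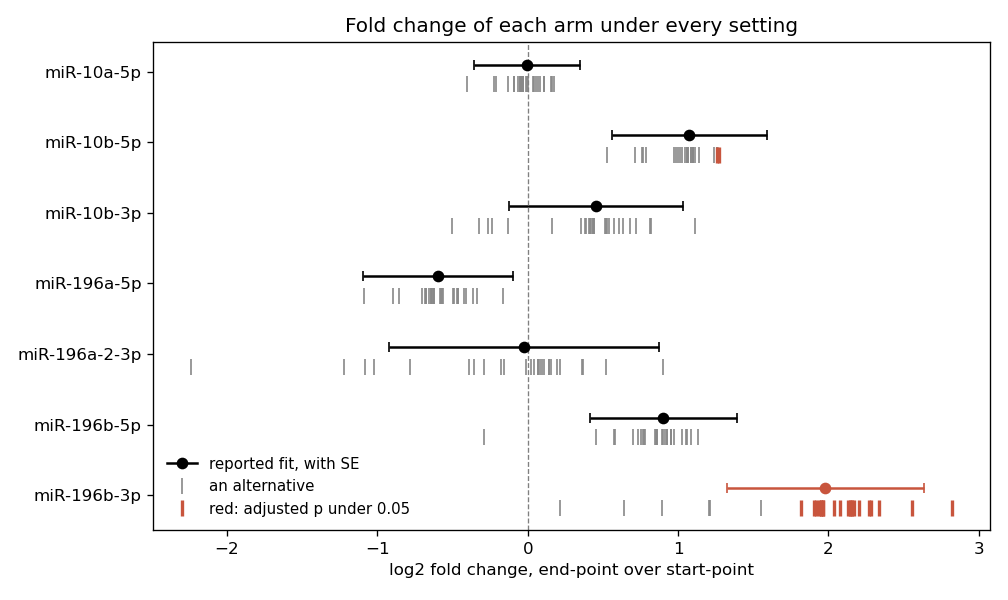
Log2 fold change of each arm, end-point over start-point, in the reported fit (points, with SE) and under each alternative (ticks). Red marks an adjusted p under 0.05. Most ticks of miR-196b-3p are red, from 1.82 upward, and the others lie between 0.21 and 1.55, while those of miR-10a-5p, miR-10b-3p and miR-196a-2-3p fall on both sides of 0, as does 1 tick of miR-196b-5p.

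The 2 arms of miR-196b were high in different end-point libraries. Libraries 2 and 4, with the most 3p, had 49.4 and 59.9 CPM of 5p, and libraries 1 and 6, with 676 and 569 CPM of 5p, had 0 and 26.5 CPM of 3p, where the 0 allows up to 54.8 CPM. Library 7 held 799 CPM of 5p and 94.0 CPM of 3p. Libraries 3 and 5 held 92.8 and 76.0 CPM of 5p with 30.9 and 42.2 CPM of 3p. The arms come from a single precursor, yet in a library the log2 ratio of 5p to 3p (counts + 0.5) ranged from -0.40 to 3.04 at the start-point and from -2.63 to 6.23 at the end-point. The highest value is that of library 1, set by the pseudocount because it had 0 counts of 3p, and with 2 counts added the highest was 4.29. The mean was 1.75 ± 1.17 (SD of 10 libraries) and 1.56 ± 3.21 (SD of 7 libraries), a difference of -0.19 (exact two-sided permutation test over 19448 splits, p = 0.867, adjusted p = 0.867 over 4 ratios). The 5p arm outnumbered the 3p arm in 13 of 17 libraries with 478 counts in all to 173.

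**Figure D3:**
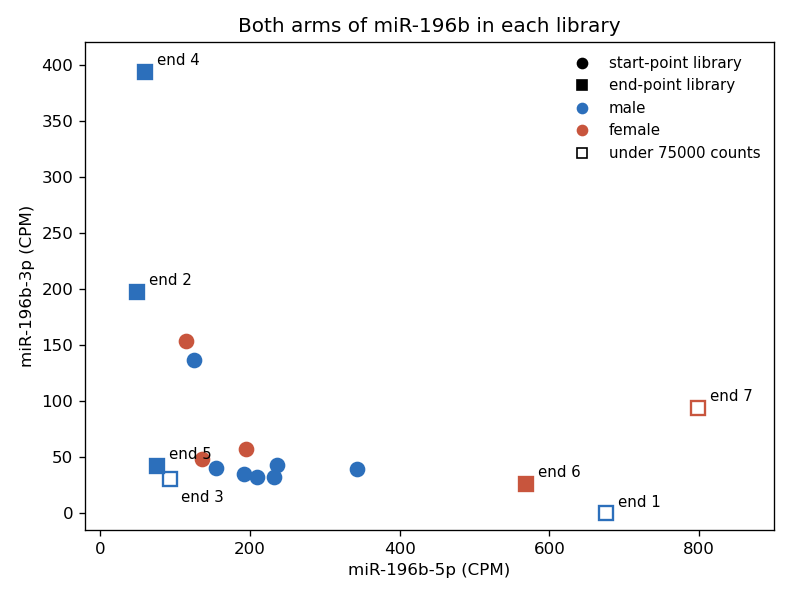
CPM of miR-196b-3p against CPM of miR-196b-5p in each of the 17 libraries (circles start-point, squares end-point, colour sex, open symbols under 75000 counts). End-point libraries 2 and 4 stand high on the 3p axis, at 198 and 394 CPM, and libraries 1, 6 and 7 far out on the 5p axis, at 569 CPM or more.

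Ratios within a library do not depend on the scaling, and 3 more were compared in the same way. The 5p arm of miR-10a exceeded that of miR-10b in 10 of 10 start-point libraries and 5 of 7 end-point libraries. Its log2 ratio went from 1.90 ± 0.67 (SD of 10 libraries) to 1.42 ± 1.83 (SD of 7 libraries), a difference of -0.48 (exact permutation p = 0.455, adjusted p = 0.627). It was -0.04 without end-point library 5, and -0.80, -0.79, -0.75 and -0.22 without libraries 1, 2, 4 and 7, while males alone gave -0.04. The exceptions were end-point libraries 5 and 7, at -1.20 and -0.13. The highest values, 3.37, 3.27 and 3.06 in libraries 1, 2 and 4, rest on 1 count of miR-10b-5p each, and with 2 counts added no end-point library exceeded the start-point maximum (2.503 against 2.67).

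The 5p arm of miR-196a exceeded that of miR-196b in 6 of 10 start-point and 3 of 7 end-point libraries, with summed counts of 441 to 277 and 104 to 201. Its log2 ratio went from 0.53 ± 0.80 (SD of 10 libraries) to -0.31 ± 1.51 (SD of 7 libraries), a difference of -0.84 (exact permutation p = 0.158, adjusted p = 0.627). The lowest end-point values were those of the 2 female libraries, -3.04 and -1.26, and the difference was -0.38 without library 6 and -0.16 among males. For the hairpin shown above, the 5p arm of miR-10b outnumbered its 3p arm in only 6 of 17 libraries, and the ratio went from -0.51 ± 0.85 (SD of 10 libraries) to 0.20 ± 2.86 (SD of 7 libraries), a difference of 0.72 (exact permutation p = 0.470, adjusted p = 0.627). Paired over the 6 mice, none of the 4 ratios passed the threshold (exact sign-flip permutation over 64 flips, adjusted p = 0.5 to 0.875, smallest p attainable 0.03125). That smallest p is unadjusted. After adjustment over 4 ratios a single ratio could not have passed even there, so the paired test cannot decide on any 1 ratio.

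**Figure D4:**
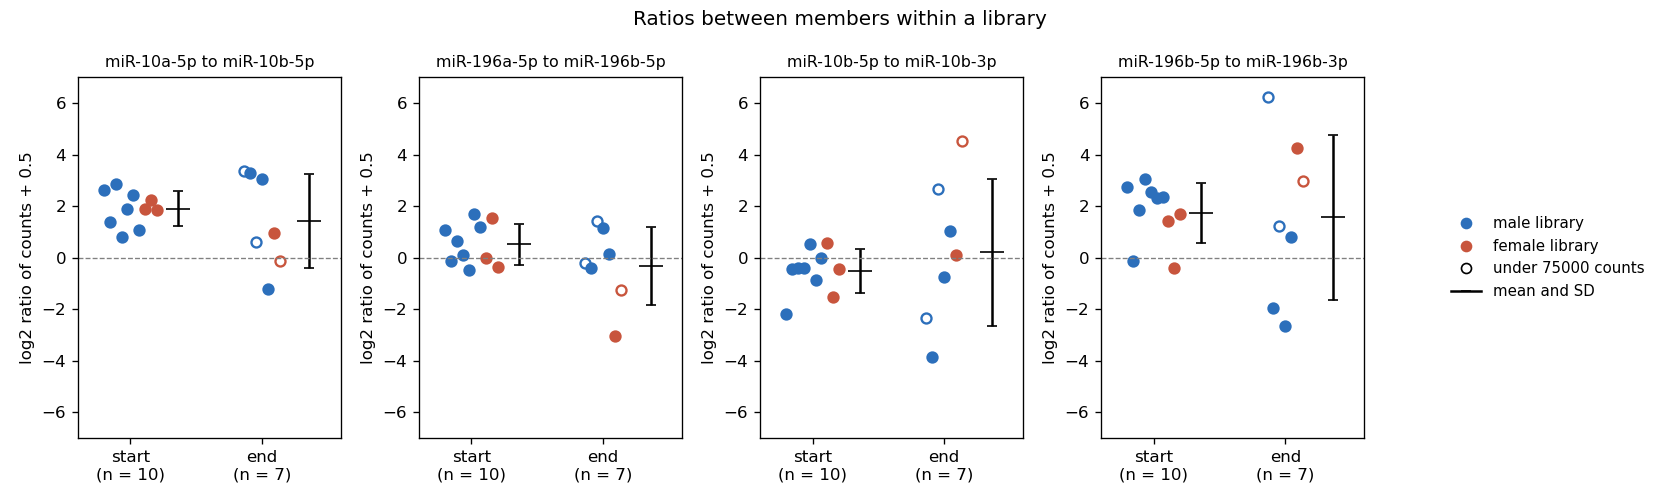
Log2 ratio of counts (+ 0.5) between paired members in each start-point (n = 10) and end-point (n = 7) library, with mean and SD, colour for sex and open points under 75000 counts. The start-point libraries cluster more tightly than the end-point libraries in all 4 panels, and the miR-10a-5p to miR-10b-5p ratio is above 0 in every start-point library.

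Sex adjusted for time point gave no call among the members, beside 0.0% of all 1462 smRNAs (edgeR), of which 140 had an unadjusted p under 0.05. The member with the smallest p was miR-196a-5p, lower in females by a log2 fold change of -1.0 ± 0.55 (SE, female over male, p = 0.0812, adjusted p = 0.573, edgeR). At the start-point it averaged 208 ± 112 CPM (SD of 3 libraries) in females and 369 ± 228 CPM (SD of 7 libraries) in males, and the ranges overlapped. By DESeq2 the value was -1.14 (p = 0.0309, adjusted p = 0.189), where 35 smRNAs but no member were called. Both fits took the libraries as separate, although sex varies only between mice. The 17 libraries came from 10 mice, 3 of them female, and these SE and p values do not allow for repeated mice.

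Other miRNAs of these gene neighbourhoods and sequence relatives were read from lists. Among Hox-cluster miRNAs outside the members, both arms of miR-615, encoded in the Hoxc cluster, were listed and 0 of 2 was called. The 5p arm, miR-615-5p, had 531 ± 539 CPM (SD of 10 libraries) at the start-point and 197 ± 242 CPM (SD of 7 libraries) at the end-point (log2 fold change -1.33, adjusted p = 0.0762, edgeR). It was called without the libraries under 75000 counts (-3.18, adjusted p = 0.000264) and by DESeq2 (-1.48, adjusted p = 0.0256). The 3p arm, miR-615-3p, had 137 ± 97.2 and 222 ± 312 CPM (0.74, adjusted p = 0.285, edgeR), and without those libraries its value was -0.88 (adjusted p = 0.147). The miR-99 and miR-100 family resembles miR-10 but carries the seed ACCCGUA on its 5p arms. Of 6 such arms 3 were listed, 2 passed the filter and 1 was lower, miR-99b-3p, which fell from 268 ± 123 CPM (SD of 10 libraries) to 94.2 ± 88.0 CPM (SD of 7 libraries), a log2 fold change of -1.52 (adjusted p = 0.0163, edgeR), with an adjusted p of 0.0608 under the mouse block. The 5p arm miR-100-5p had 276 ± 118 and 132 ± 116 CPM (-0.81, adjusted p = 0.125, edgeR). The remaining listed arm, miR-99b-5p, did not pass the filter and went the other way. It had 61.0 ± 29.0 CPM (SD of 10 libraries) and 92.4 ± 166 CPM (SD of 7 libraries), with a log2 fold change of 0.81 without the filter. These lists hold too few rows for more than their values.

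The smRNAs whose levels followed a member most closely were taken as the 3 with the highest Spearman coefficient of log2 CPM over the 17 libraries, among the 1270 tested. For miR-196a-5p these were miR-378d (0.90), miR-8108 (0.85) and miR-7036a-5p (0.76), with 0.87, 0.94 and 0.84 over the 10 start-point libraries alone. For miR-10a-5p they were miR-763 (0.66), miR-125b-5p (0.58) and miR-6967-3p (0.58). For miR-196b-5p they were miR-5121 (0.71), miR-7058-5p (0.63) and miR-205-3p (0.62). No member was among these 9, although only the 4 members that passed the filter could be. Spearman coefficients between members were taken on CPM without TMM factors, a measure unlike the log2 CPM with TMM factors used above. Their dependence on the scaling was not tested. The seed-sharing pair miR-10a-5p and miR-10b-5p had a coefficient of 0.37 over 17 libraries and 0.78 over the start-point libraries. For miR-196a-5p and miR-196b-5p the coefficients were 0.53 and 0.59. The arms of miR-196b had -0.53 and -0.66. These are descriptions over libraries that share scaling, depth and 6 mice, with the highest of many coefficients picked.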

How the data were processed

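Small RNA libraries were made from fecal exosomes (ExoQuick TC precipitation, QIAseq miRNA kit with unique molecular identifiers), per the labels' protocols. The authors deposited 1 table of whole-number counts per smRNA and library. The submitters' processing notes name bcl2fastq and GRCm38. The aligner, the counter, the assignment of reads shared by similar miRNAs, and whether identifiers removed PCR copies are not given in the sources used here.

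Members and lists were chosen with earlier results of these data known. Counts were tested with edgeR 4.0.16 (glmQLFit, glmQLFTest) in R 4.3.3, with TMM factors, filterByExpr and Benjamini-Hochberg adjustment over all smRNAs. Models were time point alone, sex with time point, and their interaction (added after the data were seen). Only the mouse block, an alternative for time point, holds a term for mouse. The other fits take libraries of the same mouse as separate. The 3 members that did not pass the filter, miR-10b-5p, miR-196b-3p and miR-196a-2-3p, are given from the fit with no filter, also added for all their alternatives. CPM use library totals without TMM factors, also in the coefficients between members. Pairing comes from mouse identity in the labels: deviations of libraries of the same mouse correlated at -0.07 to 0.26. Ratios used counts + 0.5. The named smRNAs were the members, the listed relatives, and the 3 tested smRNAs closest in pattern to each 5p arm that passed the filter (Spearman, log2 CPM with TMM factors and a prior count of 2). Alternatives were library totals, DESeq2 1.42.0, limma-voom (limma 3.58.1), other sample sets and leaving out each library. The time point fit was tested on simulated counts of independent libraries with a common dispersion and no mouse pairs. Planted log2 changes of 2 and 3, in rows past the filter, were recovered at 70.3% and 99.0%, with 4.62% of calls false. Smaller changes and rows under the filter were not covered, so this says little about most members. Sequences and positions are RefSeq's (GRCm38.p6), and host genes come from GENCODE vM21.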

Additional observations from a re-analysis of the deposited data

Results flagged for a closer look

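The start-point library of replicate 4 stood apart for miR-196b-5p, at 343 CPM against 115 to 236 CPM in the other 9 start-point libraries, a gap just over the 95% critical value of Dixon's test (0.468 against 0.466). It was 1 of 22 sets of values checked, and chance flags about 1 in 20. The check used CPM without TMM factors, which at the start-point were 0.934 in library 4, 0.799 in library 1 and 1.67 in library 9, the lowest in CPM. With those factors it was not run, so the flag holds for CPM only.

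The change of miR-196b-5p over time differed between the sexes in 2 fits chosen after the data were seen: by a log2 difference of 3.47 (female minus male) with the DESeq2 Wald test, adjusted p = 0.0224, and by 4.31 without the libraries under 75000 counts, adjusted p = 0.0179 (edgeR). The latter leaves 1 female end-point library and drops end-point library 1, the only high male value at that time point. The edgeR fit over all libraries gave 3.39 with an adjusted p of 0.548, and over its alternatives the adjusted p ran from 0.0152 to 0.881. In CPM both female pairs went up and 3 of 4 males went down, 1 of these 3 to a value at the 3-count floor. None of the fits holds a term for mouse, so these changes within mice were not tested as pairs.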

How the results depend on the processing

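The count of members called over time was 0 of those past the filter, and 1 with no filter (miR-196b-3p), with DESeq2 (miR-196b-3p), without the libraries under 75000 counts (miR-196b-3p) and with the end-point libraries of mouse 1 summed (miR-10b-5p); leaving out each library in turn gave 0 to 1, the 1 being miR-10b-5p, which passed the filter without end-point library 1, 2 or 4. For sex it was 0 throughout. Calls over all smRNAs numbered 428, but 211 among males, 95 with the replicate block on mouse and 65 with that block and end-point library 2 left out (365 to 463 leaving out each library). The sign of miR-10a-5p turned under limma-voom (0.071), in males (0.11), with sex as a covariate (0.0019) and without the libraries under 75000 counts (0.038), and ran from -0.13 to 0.17 leaving out each library. That of miR-10b-3p turned with library totals (-0.32), limma-voom (-0.13), the replicate block on mouse (-0.24) and that block without end-point library 2 (-0.50), from -0.27 to 0.81 leaving out each library. For miR-196a-2-3p it turned with DESeq2 (0.11), DESeq2 size factors (0.094), in males (0.52) and without the libraries under 75000 counts (0.90), from -1.22 to 0.37, and for miR-196b-5p in males (-0.29). The call of miR-196b-3p was also lost with limma-voom (0.64, adjusted p = 0.525) and with the block without end-point library 2 (0.21, adjusted p = 0.905). The miR-10b arm ratio turned in males (-0.11) and without the libraries under 75000 counts (-0.34), from -0.0018 to 1.39 leaving out each library, and the miR-196b arm ratio ran from -0.96 to 0.51, with -1.63 without the libraries under 75000 counts and -1.37 in males. With the mouse pairing the 4 ratio differences were -0.98, -0.97, 1.25 and -0.29, in a test where a single ratio could not have passed after adjustment. Beyond miR-196b-3p and miR-99b-3p the block changed no call of a member or named relative. The causes were not tested. The planned ratio of miR-10a-5p to miR-10a-3p was not run, since that arm was not analysed here. With 0 to 86 counts per library behind each member, depth limits all of these values.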
